A study of Mus musculus with 48 samples.

Results

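The cathepsins, legumain and cystatin C were followed here in mice with collagen-induced arthritis (CIA): 10 genes of the 34586 genes in the table of unique molecular identifiers (UMIs), chosen by name as Ctsb, Ctsc, Ctsd, Ctsh, Ctsk, Ctsl, Ctss, Ctsz, Lgmn and Cst3. All 10 had UMIs. Joint, lung, skeletal muscle, skin and spleen cells of male DBA1/J mice aged 8 to 12 weeks were profiled by Seq-Well, a microwell form of single-cell RNA sequencing, as 48 samples of 10 mice. The 4 healthy mice (numbers 3, 4, 6 and 7) received saline, and the 6 CIA mice (numbers 1, 2, 3, 5, 6 and 8) received 100 µg of bovine type II collagen in complete Freund's adjuvant and a booster on day 20. Joints were available from 3 healthy and 5 CIA mice and each other organ from 4 and 6. The mice were killed at an arthritis score of 8 to 12 or at 60 days after immunization, and the organs were cryopreserved and then dissociated, joint and lung with collagenase IV at different strengths, muscle with collagenase II, skin with collagenase I, and spleen without collagenase. CIA mice 1, 2 and 3 had severe arthritis and carry the name tag 2CIA, as does healthy mouse 3, while CIA mice 5, 6 and 8 had mild arthritis and the tag CIA. Severity and name tag therefore cannot be told apart among the CIA mice.

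Papain-like cysteine cathepsins cut proteins in the acid interior of endosomes and lysosomes, and some are secreted and act on the matrix. Ctsb is an endopeptidase and carboxydipeptidase, Ctsl an endopeptidase, Ctsk the collagen-degrading enzyme of osteoclasts, Ctss the enzyme that trims the invariant chain in antigen-presenting cells, and Ctsc the activator of the serine proteases of cytotoxic and myeloid granules. Ctsh is an aminopeptidase, Ctsz a carboxypeptidase, and Ctsd an aspartic protease. Lgmn, or legumain, cuts after asparagine and processes several cathepsins. Cst3 encodes cystatin C, a secreted inhibitor of cysteine cathepsins.

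The table held 13240 cells, of which 12096 carried 1 of 13 cell labels. Samples held 17748 to 1645734 UMIs. The labelled cells had a median of 675 UMIs and 409 genes, so a single cell rarely showed the rarer members. Of 13164 distinct barcodes, 59 occurred in more than 1 library. The labels had been made from the expression of these same cells, and Ctss was itself one of the genes used to name macrophages, so differences between labels are given as descriptions without a test. All 10 macrophage marker genes of the study were seen in the joint, lung and muscle macrophages of both groups, and their summed level lay between 8991 and 31787 CPM over the mice (CPM is the count of a gene scaled to one fixed total of UMIs for the label in that mouse). Fewer expressing cells within a label and less RNA per cell cannot be told apart in sums.

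In GRCm38, Ctsk (chr3:95499256-95509362) and Ctss (chr3:95526786-95556403) lie on the same strand with 17423 bases between them, and Cst3 lies on the minus strand at chr2:148871722-148875692. Ctsd is on the minus strand at chr7:142375911-142388038. The bases just upstream of Ctsk, Ctss and Cst3 are shown because the 2 neighbouring genes differed in which cells held them and Cst3 was the gene that moved with CIA. They come from RefSeq windows (GRCm38.p6) that were available for 8 of the 10 genes and were cut back where GENCODE places an earlier start. The Ctsk run is chr3:95498960-95499209 (plus strand), the Ctss run chr3:95526536-95526785 (plus strand) and the Cst3 run chr2:148875693-148875762 (minus strand). Capitals mark GAGGAA or TATAAA, on either strand.

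Ctsk: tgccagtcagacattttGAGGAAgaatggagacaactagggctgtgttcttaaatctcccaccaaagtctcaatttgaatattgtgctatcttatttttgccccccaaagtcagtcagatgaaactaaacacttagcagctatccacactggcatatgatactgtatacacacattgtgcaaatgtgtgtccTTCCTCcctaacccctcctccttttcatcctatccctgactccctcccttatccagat
Ctss: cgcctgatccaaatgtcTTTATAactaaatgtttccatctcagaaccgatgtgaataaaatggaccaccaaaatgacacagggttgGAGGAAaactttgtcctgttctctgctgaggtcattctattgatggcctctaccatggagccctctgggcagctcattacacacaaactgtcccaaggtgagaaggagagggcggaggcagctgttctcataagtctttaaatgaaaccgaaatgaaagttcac
Cst3: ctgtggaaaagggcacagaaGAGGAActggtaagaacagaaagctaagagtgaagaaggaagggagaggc

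GAGGAA is part of the sequence that PU.1, a macrophage and lymphoid factor, can bind, and it stood in 4 of the 9 member windows of 300 bases and in 28.3% of 32851 such windows of all genes. The longer AGAGGAAG was in 0 of the 9 and in 4.55% of all. TATAAA was in 2 of the 9 and in 13.6% of all, and TGANTCA, an AP-1 motif, in 0 and 7.81%. CACGTG, the core of the element through which TFEB acts on lysosomal genes, was in 3 of the 9 (Ctsd, Ctsl and 1 of the Lgmn windows) and in 7.15% of all, and TCACGTG, which contains it, in 2 and 3.77%. Ctsd held this core at 2 places, and the one nearer the start is shown in capitals in 30 bases of the minus strand at chr7:142387908-142387937, inside the gene as GENCODE annotates it.

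Ctsd: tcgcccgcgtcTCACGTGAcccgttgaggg

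The members fell into several patterns of level across 28 pairs of organ and label with at least 50 cells, with all mice pooled and levels given in CPM. Ctss was at 4977 in lung macrophages, 3134 in skin macrophages, 2291 in joint macrophages and 1733 in muscle macrophages, then at 1546 in spleen monocytes, and at 19.9 to 96.8 in the fibroblasts of joint, muscle and skin. Ctsk was instead highest in fibroblasts, with 564 in skin fibroblasts and 531 in joint fibroblasts against 13.7 in muscle macrophages. Lung macrophages were the exception at 227 CPM of Ctsk, above the 173 of muscle fibroblasts. Every Ctsk UMI of the lung, 79 in healthy and 24 in CIA mice, was in a macrophage, whereas fibroblasts held 93.2% of the Ctsk UMIs of the healthy joint. The lung held 677 labelled macrophages but only 18 fibroblasts, and 0 mice had 10 lung fibroblasts. The lung share therefore cannot show whether lung fibroblasts hold Ctsk.

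Cst3 was at 5012 CPM in joint fibroblasts, 3974 in spleen monocytes, 2924 in muscle fibroblasts and 2831 in muscle macrophages. In the healthy joint, fibroblasts made up 47.5% of the labelled cells and held 80.9% of the Cst3 UMIs. Ctsb was between 1386 and 1594 in the macrophages of joint, lung, muscle and skin, and the next highest pair was joint fibroblasts at 933. Ctsl led in the fibroblasts, at 973 in muscle, 929 in skin and 787 in joint. Ctsd was at 642 in muscle granulocytes, 627 in lung macrophages, 617 in joint granulocytes and 613 in muscle neutrophils, and joint macrophages followed at 294. Ctsc was highest in lung macrophages (252) and joint macrophages (219), Ctsh in skin macrophages (385) with 229 in spleen B cells, Ctsz in muscle macrophages (299), and Lgmn in joint macrophages (129). The skin macrophages numbered only 58 cells.

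**Figure D1:**
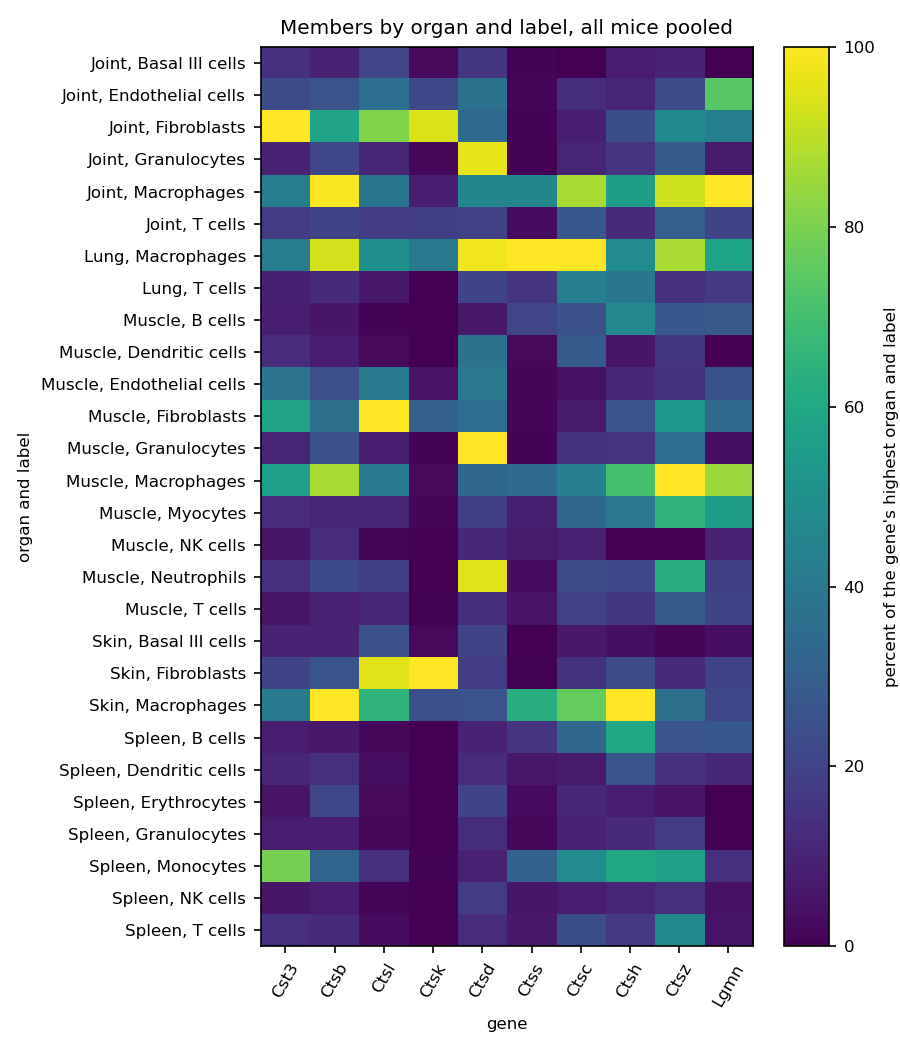
Level of each of the 10 genes (columns) in the 28 pairs of organ and label with at least 50 cells (rows), as a percent of the highest pair of that gene, with UMIs of all mice pooled. Cst3, Ctsl and Ctsk peak in fibroblasts, Ctsd is high in granulocytes and lung macrophages, and the remaining genes peak in macrophages, with Ctsk of the lung macrophages at 227 CPM.

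Among the members, Ctsk and Ctsl were the most alike over the 28 pairs, with a Pearson r of 0.846 on log2(CPM + 10), followed by Ctsc and Ctss at 0.798 and Ctsb and Cst3 at 0.794. Outside the list, the genes most like Ctsk were Axl (r = 0.930), a receptor tyrosine kinase, and Fndc3b (0.891). Ctsl was most like Ccl7 (0.923), a chemokine, and Anxa5 (0.917), and Ctss like Lat2 (0.892) and Bcl2a1a (0.891). Tgfbi was among the genes closest to Cst3 (0.854). The closest genes were Gm14032 (0.884) and Mmp19 (0.883) for Ctsb, Cdc42 (0.861) and Abcg1 (0.857) for Ctsc, and Rab20 (0.835) and Atp6v1e1 (0.825) for Ctsd. They were Psap (0.776) and Mpeg1 (0.753) for Ctsh, Cdc42 (0.777) and Fem1c (0.768) for Ctsz, and Epb41l2 (0.762) and Lrpap1 (0.761) for Lgmn. These values describe 28 pairs that share mice and libraries, among 6533 genes with at least 200 UMIs.

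Whether CIA changed the members was tested in 11 pairs of organ and label on UMI sums per mouse, with edgeR's quasi-likelihood test and Benjamini-Hochberg adjustment over all genes kept by its filter on low counts. The filter kept between 0 and 6 of the 10 members. Cst3 was tested in 10 of the 11 pairs, Ctsb in 8, Ctsl in 7, Ctss in 6, Ctsd in 4, Ctsk and Ctsz in 2, Ctsh in 1, and Ctsc and Lgmn in none. Cst3 was the only member past an adjusted p of 0.05, and it fell in CIA in joint and in lung macrophages. The healthy and CIA groups held 3 to 6 mice each, and the p-values set the difference between groups against the spread between mice. Counts at an unadjusted p under 0.05, or by DESeq2 as an alternative test, are given below without the share of all genes. Such counts cannot show an excess among the members.

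In joint macrophages, Cst3 stood at 2783, 4286 and 5450 CPM in healthy mice 3, 4 and 7. It stood at 1289, 827, 2262 and 564 in CIA mice 1, 3, 5 and 8. These sums held 17 to 27 cells a healthy mouse and 21 to 110 a CIA mouse. No CIA mouse reached the lowest healthy mouse. The log2 fold change of CIA against healthy was -1.72 (SE 0.387, edgeR adjusted p = 0.0217, n = 3 and 4). Of all 273 genes tested, 10.3% passed, and 1 of the 3 members tested did. The call was lost, with the direction kept, when CIA mouse 1 (adjusted p = 0.0865), CIA mouse 3 (0.0616) or healthy mouse 7 (0.118) was left out of the edgeR fit, and when every gene with a UMI was kept (log2 fold change -1.09, adjusted p = 0.608). With the name tag as a term the log2 fold change was -1.64 (edgeR adjusted p = 0.0287), and in the mice of tag CIA alone -1.75 (0.154).

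Ctsb was at 799 to 2269 in healthy and 1254 to 2317 CPM in CIA joint macrophages, and Ctss at 1597 to 2360 and 1442 to 5571. Both differences were within the spread between mice (edgeR adjusted p = 0.783 and 0.684). Ctsl was too sparse for the filter, with 9 UMIs in the 3 healthy mice and 117 in the 4 CIA mice. Its levels of 0 to 169 in healthy mice and 251 to 607 in CIA mice did not overlap, but with every gene kept its log2 fold change of 2.24 had an edgeR adjusted p of 0.589. Among the lysosomal and inhibitor genes listed beside the members (6 other cathepsins, 8 other cystatins and stefins, 34 hydrolases and activators, 26 membrane and proton pump genes, and 9 genes of sorting and transcription), 6 could be tested in joint macrophages, 0 passed by edgeR, and 1, a cystatin or stefin, had an unadjusted p under 0.05.

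Some markers of macrophages and of other cells also differed between healthy and CIA joint macrophages, in either direction. The 11 fibroblast markers summed to 1597 to 3389 CPM in the healthy mice and 753 to 1567 in the CIA mice, with Fbln2 at 0 in both groups, and Dcn, the matrix proteoglycan decorin, fell with a log2 fold change of -3.12 (edgeR adjusted p = 0.00997). The median of this sum in macrophages was 5.00% of that in healthy joint fibroblasts and 1.41% of that in CIA joint fibroblasts. For Cst3 the same ratios were 30.6% and 35.2%, but the median Cst3 of the joint fibroblasts was itself 13997 CPM in healthy and 3010 in CIA mice. None of these ratios of medians was tested. The 9 resident macrophage markers summed to 4139 to 5378 in healthy and 502 to 2133 in CIA mice, with Lyve1 at 0 in CIA mice. Within that list, C1qc (-1.59, edgeR adjusted p = 0.0323) and Pf4 (-2.29, 0.0491) fell. The 6 granulocyte markers, all seen in both groups, summed to 924 to 9391 in healthy and 34442 to 62335 in CIA mice, and S100a8 rose by 3.39 on the log2 scale (edgeR adjusted p = 0.0200). Ly6c2, a monocyte marker, rose by 4.59 (0.0210), although CIA mouse 3, at 55.2 CPM, was not above healthy mouse 7 at 56.2. The 6 monocyte markers together, all seen in both groups, summed to 1180 to 2057 in healthy and 1213 to 2855 in CIA mice, and this sum overlapped between the groups. The part of these markers in the Cst3 difference was not tested.

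**Figure D2:**
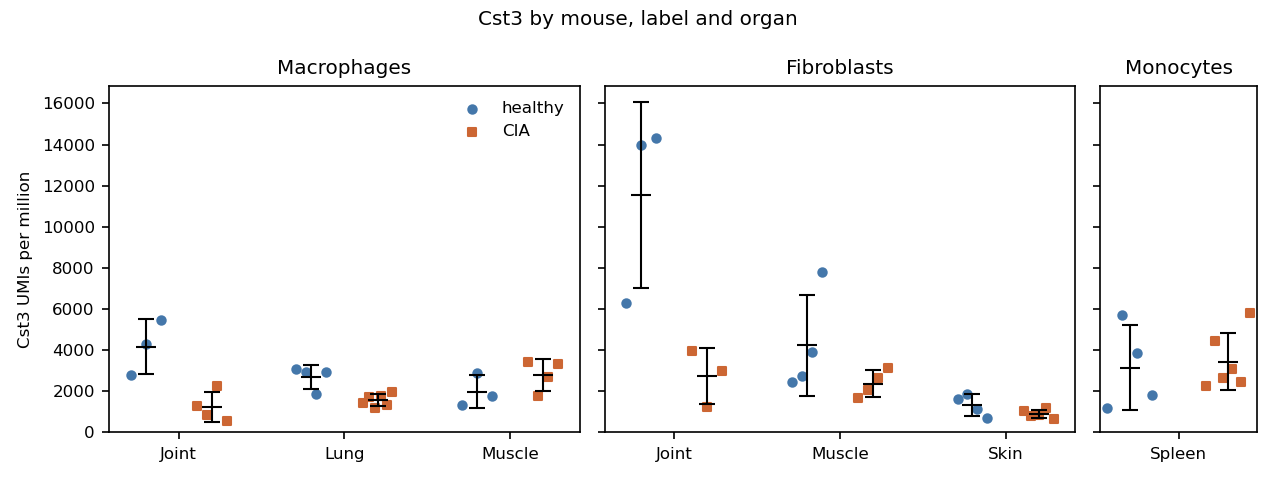
Cst3 in CPM (axis: UMIs scaled to a fixed total) in each mouse (points), with the mean and SD of each group (bars), in macrophages, fibroblasts and spleen monocytes with at least 10 cells. Healthy and CIA mice do not overlap in joint macrophages or joint fibroblasts, while in muscle macrophages the CIA mean of 2797 is above the healthy mean of 1986.

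In lung macrophages, Cst3 stood at 3068, 2917, 1850 and 2931 CPM in healthy mice 3, 4, 6 and 7. Over the 6 CIA mice its lowest level was 1209, its median 1598 and its highest 1972. Only healthy mouse 6 was within the CIA range. The log2 fold change was -0.89 (SE 0.209, edgeR adjusted p = 0.0127, n = 4 and 6), where 6.51% of 538 genes passed and 1 of the 5 members tested did. Within the tag 2CIA, CIA mice 1, 2 and 3 stood at 1453, 1743 and 1209 against 3068 in healthy mouse 3, and within the tag CIA, CIA mice 5, 6 and 8 at 1767, 1320 and 1972 against 1850 to 2931. With the tag as a term the log2 fold change was -0.88 (edgeR adjusted p = 0.0182), and in the mice of tag CIA alone -0.68 (0.362). The call was lost without healthy mouse 3 (0.0679) or healthy mouse 4 (0.0550), and with every gene with a UMI kept (0.586).

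Ctsk, tested in the lung macrophages only when every gene with a UMI was kept, was lower in CIA. It had 10, 47, 16 and 6 UMIs in healthy mice 3, 4, 6 and 7, which is 287, 452, 477 and 195 CPM. CIA mice 1, 2, 3, 5, 6 and 8 had 7, 5, 0, 2, 7 and 3 UMIs, or 80.1, 80.7, 0, 69.3, 197 and 174 CPM. Healthy mouse 7 and CIA mouse 6 were nearly equal, and every other healthy mouse was above every CIA mouse. The log2 fold change was -2.01 (SE 0.492, edgeR adjusted p = 0.0267), in a fit where 0.193% of 16555 genes passed. With the tag as a term the adjusted p was 0.239, and in the edgeR fits without 1 mouse it rose above 0.05 when CIA mouse 1, 2, 3 or 5 (0.0551, 0.0683, 0.163 and 0.0989) or healthy mouse 4 or 6 (0.604 and 0.111) was left out.

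Ctsd was at 537 to 1078 CPM in healthy lung macrophages and 316 to 754 in CIA, a log2 fold change of -0.80 that did not pass (edgeR adjusted p = 0.123). Ctss was at 4902 to 6007 and 3844 to 5179, with -0.42 (0.209). Their groups overlapped. Ctsb (1118 to 1405 and 1291 to 2156) and Ctsl (293 to 481 and 232 to 887) had adjusted p-values of 0.474 and 0.838. Of the 10 alveolar macrophage markers, 9 were seen in each group, with Marco at 0, and their sum was 1761 to 2426 in healthy and 686 to 1074 in CIA mice. Chil3, an alveolar macrophage gene, fell by 1.07 on the log2 scale (edgeR adjusted p = 0.0162). The fibroblast markers, of which Fstl1, Mmp2 and Pdgfra were at 0 in both groups, summed to 57.3 to 293 in healthy and 57.2 to 406 in CIA mice and did not separate the groups. The 6 granulocyte markers, with Ltf at 0, summed to 358 to 631 and 580 to 14952, and S100a8 rose by 4.19 and Ly6c2 by 5.00 (edgeR adjusted p = 0.000391 and 6.41e-05). The sum of the 6 monocyte markers overlapped, at 1777 to 2899 in healthy and 2178 to 3313 in CIA mice. The 10 osteoclast markers, a list that does not hold Ctsk, summed to 261 to 477 in healthy and 58.0 to 258 in CIA lung macrophages. The lowest healthy mouse (261) and the highest CIA mouse (258) were nearly equal, so the sums barely separated the groups. Only 5 of the 10 were seen in each group, with Oscar, Ocstamp, Calcr and Itgb3 at 0 in both. The part of the alveolar, monocyte, osteoclast and granulocyte markers in the Cst3 and Ctsk differences was not tested.

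**Figure D3:**
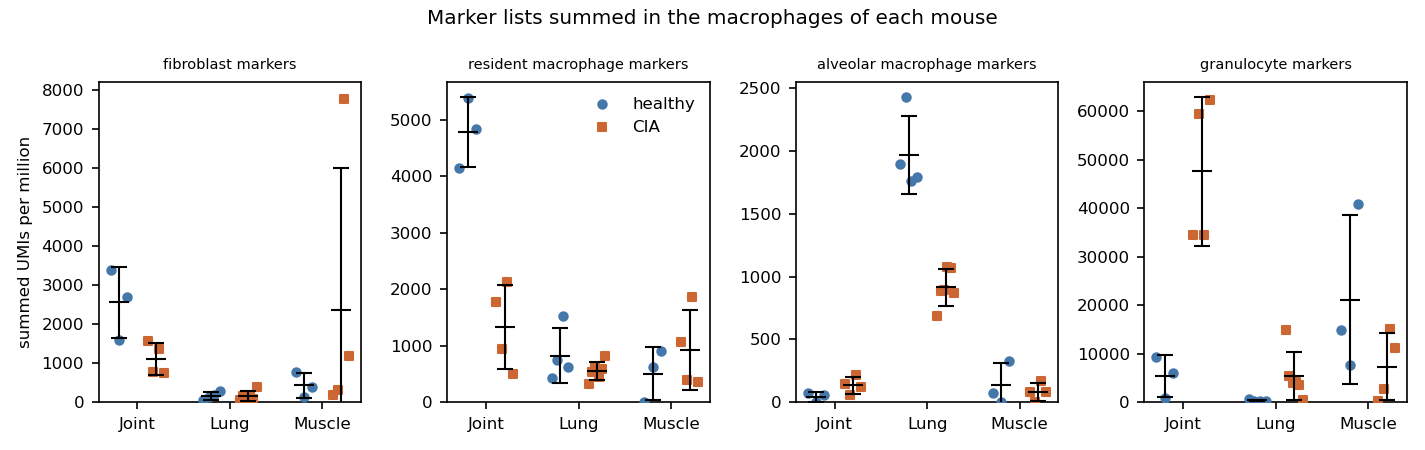
Summed CPM of 4 marker lists in the macrophages of each mouse (points), with the mean and SD of each group (bars), by organ. In joint macrophages resident markers are at 4139 to 5378 in healthy and 502 to 2133 in CIA mice, in lung macrophages alveolar markers are at 1761 to 2426 and 686 to 1074, and in muscle 1 CIA mouse has a fibroblast sum of 7770.

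In muscle macrophages, Cst3 did not pass the test. It stood at 1310, 2866 and 1781 CPM in healthy mice 4, 6 and 7. In CIA mice 2, 3, 5 and 6 it stood at 3429, 1752, 2683 and 3324. The groups overlapped, with a log2 fold change of 0.64 (edgeR adjusted p = 0.723). Ctsz was at 77.0 to 239 in healthy and 236 to 398 in CIA mice, with a log2 fold change of 1.34 (edgeR adjusted p = 0.672). The other members tested were within the spread between mice. Ctss had a log2 fold change of 0.72 (edgeR adjusted p = 0.723), Ctsb of -0.47 (0.723), Ctsd of -0.54 (0.877) and Ctsl of -0.20 (0.957). None of the 6 members tested passed by edgeR or DESeq2, 1 (Ctsz) had an unadjusted p under 0.05, and 0.183% of 545 genes passed.

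The CIA effect on Cst3 differed between joint and muscle macrophages. The joint effect minus the muscle effect was -2.27 on the log2 scale (SE 0.491, edgeR adjusted p = 0.0113), the only member to pass, while 2.41% of 913 genes passed. Only healthy mice 4 and 7 and CIA mice 3 and 5 gave macrophage sums of both joint and muscle. With the mouse as a block the difference was -2.15 (edgeR adjusted p = 0.0635). It no longer passed without healthy mouse 4 (0.109) or healthy mouse 7 (0.150), or with at least 20 cells per mouse (0.246). Leaving out CIA mouse 5 gave -2.77 (edgeR adjusted p = 0.00210). Between lung and muscle the difference of the Cst3 effects was -1.53 (edgeR adjusted p = 0.113, 1.2% of genes passed), and between lung and joint it was 0.74 (0.636, 0.11% passed). No member passed by edgeR in these latter contrasts. At an unadjusted p under 0.05 there were 3 members and 2 members, and DESeq2 called 1 (Cst3, adjusted p = 0.0494) and 0. The share of all genes at these cutoffs is not given, so these counts cannot show an excess among the members. Without healthy mouse 6 the lung against muscle difference was -2.06 (edgeR adjusted p = 0.0414). The fibroblast marker sum of the muscle macrophages was 143 to 770 in healthy mice and 197 to 7770 in CIA mice, with Pdgfra at 0 in both. Gsn, a fibroblast marker, had a CIA effect that was lower in joint than in muscle macrophages (-4.92, edgeR adjusted p = 0.0319), and Ly6c2 (5.43, 0.00629) and S100a8 (4.49, 0.0319) had higher ones. The highest fibroblast sum was in CIA mouse 5. The part of these markers in the Cst3 difference was not tested.

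In joint fibroblasts, the label with the highest Cst3, the CIA mice were again below the healthy mice. Cst3 stood at 6315, 13997 and 14311 CPM in healthy mice 3, 4 and 7. It stood at 3961, 1253 and 3010 in CIA mice 1, 3 and 5. The groups did not overlap, yet the log2 fold change of -2.16 (SE 0.594) did not pass edgeR's test (adjusted p = 0.129) where 1.68% of 1014 genes did. DESeq2 gave -2.25 with an adjusted p of 0.00456. Ctsl was at 1124, 1130 and 1268 in the healthy and 587, 393 and 819 in the CIA mice, again without overlap, with a log2 fold change of -1.02 (edgeR adjusted p = 0.204). Ctsk and Ctsb overlapped, at 285 to 518 and 131 to 787 for Ctsk and 506 to 906 and 393 to 1124 for Ctsb (edgeR adjusted p = 0.972 and 0.849). Of the 4 members tested, 0 passed by edgeR, 2 had an unadjusted p under 0.05 and 1 passed by DESeq2. The unadjusted and DESeq2 counts lack the share of all genes and cannot show an excess. The 11 fibroblast markers, all seen, summed to 51058 to 68172 in the healthy and 30336 to 77466 in the CIA mice, with Gsn, gelsolin, falling by 3.85 on the log2 scale (edgeR adjusted p = 0.0282). The granulocyte markers summed to 1440 to 6081 and 13837 to 30292. The median UMIs per fibroblast were 679 to 838 in the healthy and 1020.5 to 1471.5 in the CIA mice. The part of these markers and of depth was not tested.

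Other labels of the joint had fewer than the 3 healthy mice set here as a minimum and were not tested. Cst3 was at 1736 and 3064 CPM in the endothelial cells of healthy mice 3 and 4 and at 921 to 1043 in those of 3 CIA mice. In granulocytes it was at 710 in 1 healthy mouse and at 284 to 704 in 4 CIA mice, and in T cells at 570 and 871 in 2 healthy mice and 297 to 1567 in 4 CIA mice. The endothelial values did not overlap, while those of the T cells did. With so few healthy mice and no test, these values cannot show whether CIA changed Cst3 in these labels.

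In skin fibroblasts, Ctsl was at 1217, 1286, 1242 and 1348 CPM in healthy mice 3, 4, 6 and 7. In CIA mice 1, 2, 3, 5 and 8 it was at 419, 946, 368, 723 and 717. Every CIA mouse was below every healthy mouse, with a log2 fold change of -0.94 (SE 0.273) and an unadjusted p of 0.00381 that did not survive adjustment by edgeR (0.266). In this pair 0% of 349 genes passed, so the test called no gene at all. Cst3 was at 687 to 1862 and 675 to 1168, and its groups overlapped (edgeR adjusted p = 0.661). Ctsb and Ctsk had log2 fold changes of 0.38 and -0.08 (edgeR adjusted p = 0.857 and 0.957). Of the 4 members tested, 0 passed by edgeR or DESeq2 and 1 had an unadjusted p under 0.05. In muscle fibroblasts, where 0% of 173 genes passed, Ctsl (618 to 1301 and 662 to 1058) and Cst3 (2471 to 7815 and 1655 to 3133) were tested and 0 passed by edgeR, by DESeq2 or at an unadjusted p under 0.05. No member had a CIA effect that differed between fibroblasts of 2 organs by edgeR or DESeq2, where 0.176% of 1134 genes passed between joint and muscle, 0% between joint and skin and 0% between muscle and skin. At an unadjusted p under 0.05 there were 2, 1 and 1 members, given without the share of all genes, so they cannot show an excess.

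In spleen monocytes, 6.36% of 456 genes passed by edgeR but 0 of the 3 members tested did, also by DESeq2 and at an unadjusted p under 0.05. Cst3 was at 1185 to 5728 in healthy and 2239 to 5794 in CIA mice and Ctss at 1071 to 1470 and 1308 to 2595, and both overlapped. Ctsb was at 51.5 to 658 in healthy and 376 to 807 in CIA mice, with a log2 fold change of 0.53 (edgeR adjusted p = 0.675). The same 3 counts were 0 for the 3 members tested in spleen B cells (Cst3, Ctss and Ctsh, 0% of 1252 genes passed), the 6 in muscle T cells (0.0511% of 1957) and the 4 in skin basal III cells (0% of 1280). In the muscle T cells the members were Ctsl (-1.10), Ctss (0.59), Ctsd (-0.52), Ctsb (-0.43), Cst3 (-0.37) and Ctsz (-0.05), given as log2 fold changes, with edgeR adjusted p-values of 0.834 to 0.998. In the basal III cells they were Ctsl (-0.46), Ctsd (-0.20), Ctsb (-0.10) and Cst3 (0.06), with 0.956 to 0.999. In the B cells all 3 log2 fold changes lay between -0.01 and 0.15. In spleen NK cells no member was kept by the filter (0% of 421 genes passed). Over the 11 pairs, the 34 lysosomal hydrolases and activators gave 22 tests, the 26 membrane and proton pump genes 51, the 8 other cystatins and stefins 8, the 9 genes of sorting and transcription 1 and the 6 other cathepsins 0, and edgeR called 0 of them. Unadjusted edgeR p-values under 0.05 numbered 4, 4, 2, 0 and 0 in these lists. In the same pairs 0% to 10.3% of all genes tested passed, so 0 calls do not set the lists apart.

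**Figure D4:**
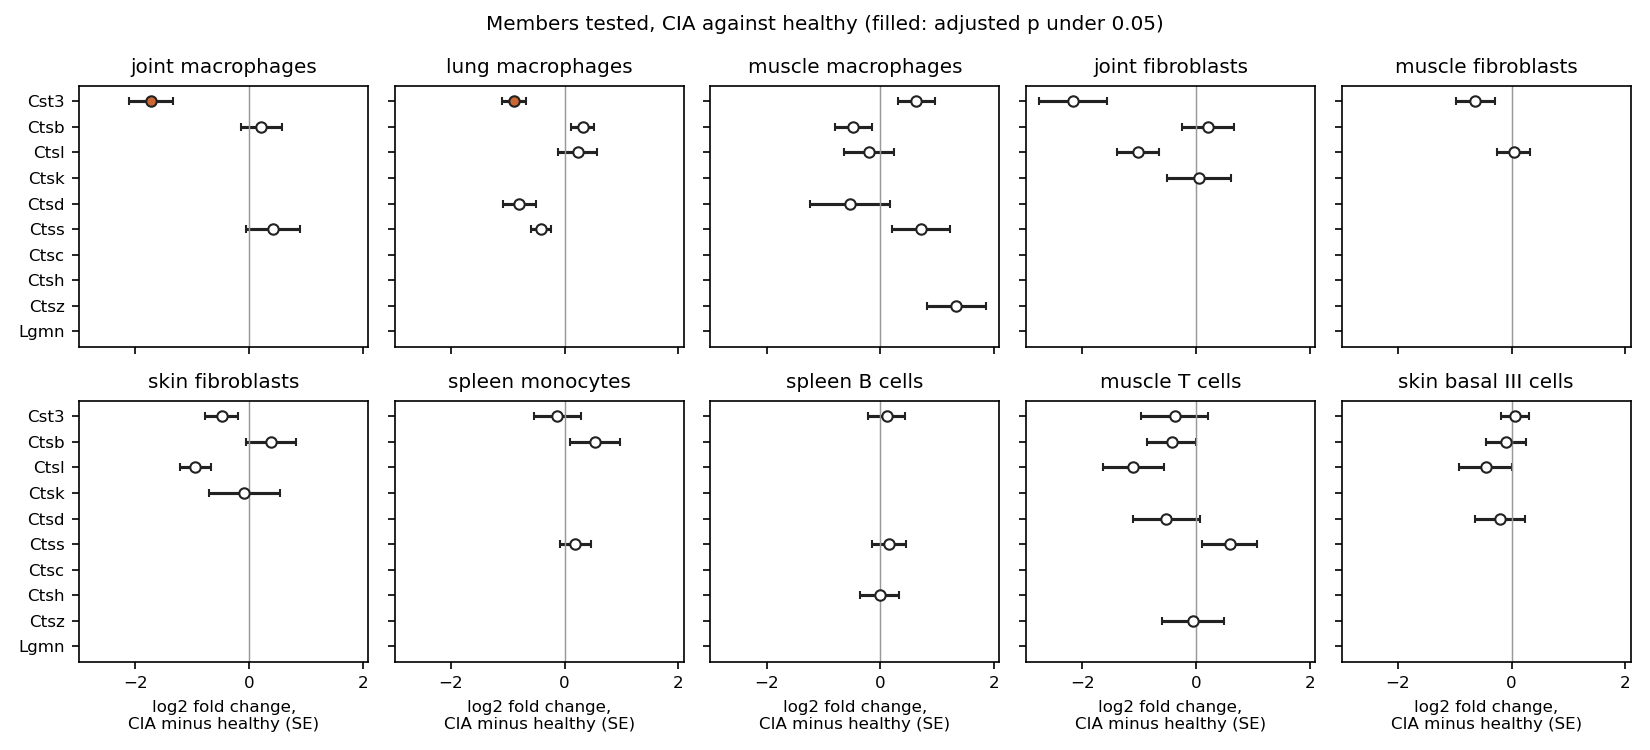
Log2 fold change of CIA against healthy with its SE (bars) for each member that passed the filter, in 10 pairs of organ and label, from edgeR. Filled points have an adjusted p under 0.05, and these are Cst3 in joint macrophages (-1.72) and in lung macrophages (-0.89).

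How the members differ between macrophages of different organs was tested in 1 fit of 24 sums from joint, lung and muscle, with disease as a term. Each organ had its own collagenase or strength of it, so organ and digestion cannot be told apart. Ctsd and Ctss were higher in lung than in both other organs, and Ctsc higher in lung than in muscle. Ctsd had a lowest, median and highest level of 316, 535 and 1078 CPM in the 10 lung samples, of 84.0, 225 and 425 in the 7 joint samples and of 79.6, 239 and 447 in the 7 muscle samples. Ctss had 3844, 4978 and 6007 in lung, 1442, 2178 and 5571 in joint and 955, 1194 and 4459 in muscle. For Ctss, only CIA mouse 3 in joint (5571) and in muscle (4459) reached the lung range, and for Ctsd, CIA mouse 5 in joint (425) and in muscle (447) and healthy mouse 7 in muscle (332).

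The log2 difference of lung against joint was 1.23 for Ctsd (SE 0.323, edgeR adjusted p = 0.0112) and 1.06 for Ctss (SE 0.287, 0.0134), where 13.1% of 913 genes passed. Against muscle it was 1.45 for Ctsd (0.00207), 1.61 for Ctss (0.000208) and 1.28 for Ctsc (SE 0.446, 0.0335), where 27.5% passed. Ctsc was at 105 to 522 in lung and 72.1 to 239 in muscle, which overlap, and with the mouse as a block its adjusted p was 0.160. It was 0.0544 to 0.118 without healthy mouse 6 or CIA mouse 1, 2, 6 or 8, and 0.0548, 0.0509 and 0.215 with plain library size, at least 5 cells per mouse and no filter on low counts. The lung against joint calls of Ctsd and Ctss were lost without healthy mouse 4 (edgeR adjusted p = 0.0582 and 0.0517), with at least 20 cells per mouse (0.109 and 0.0680) and in CIA mice alone (0.305 and 0.332). In healthy mice alone both passed in lung against joint (1.91 and 1.49, edgeR adjusted p = 0.00668 and 0.000825) and in lung against muscle (1.59 and 2.27, 0.0158 and 2.06e-05). In CIA mice alone the lung against muscle values were 1.33 and 1.15 (edgeR adjusted p = 0.0625 and 0.0599).

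Ctsk was removed by the filter and was read from the fit of every gene with a UMI. It had 103 UMIs in the 10 lung samples, 14 in the 7 joint samples and 3 in the 7 muscle samples, where 5 samples had none. Lung was above muscle by 3.75 on the log2 scale (SE 0.706, edgeR adjusted p = 3.74e-05, 1.58% of 20377 genes passed). Against joint the difference was 1.89 (edgeR adjusted p = 0.0694, 0.972% passed), and DESeq2 gave 2.04 (0.0180). Of the 14 joint UMIs, 10 came from CIA mouse 1, and without that mouse the difference from joint was 3.26 (edgeR adjusted p = 0.00242). The 10 osteoclast markers summed to 261 to 477 CPM in healthy and 58.0 to 258 in CIA lung macrophages, and to 0 to 168 in healthy and 0 to 149 in CIA joint macrophages. Their part in the Ctsk difference was not tested. Joint and muscle macrophages did not differ by edgeR in any of the 7 members tested, 0 of which had an unadjusted p under 0.05 or passed by DESeq2, and 1.31% of genes passed. For Cst3 in these organs the direction depended on disease, at -0.26 over all mice (edgeR adjusted p = 0.718), 1.22 in healthy mice alone (0.0448) and -1.17 in CIA mice alone (0.0805).

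Some genes of the other lists differed in the same contrasts. Of 7 lysosomal hydrolases and activators tested, Lipa, the lysosomal acid lipase, was the only one to pass, and it was higher in lung than in joint (2.03, edgeR adjusted p = 0.000267) and muscle (2.27, 0.000103). Of 11 membrane and proton pump genes, 1 passed, Atp6v0e against muscle (0.64, 0.0206). Of all 913 genes, 13.1% passed against joint and 27.5% against muscle, so neither lysosomal list stood out by its count. All 6 granulocyte markers, the 3 fibroblast markers tested and the 3 erythroid markers tested were lower in lung than in joint macrophages, and against muscle 5 of 6, 3 of 3 and 3 of 3 were. Among these the granulocyte sum was 358 to 14952 in lung and 924 to 62335 in joint macrophages. Chil3 was the 1 alveolar marker tested and was higher in lung. C1qb, C1qc and Pf4, all resident macrophage markers, were lower in lung than in joint macrophages (-2.47, -3.04 and -4.98, edgeR adjusted p = 0.000447, 1.70e-05 and 0.000192). Of the 6 resident markers tested, 5 were lower and 0 higher in lung than in joint macrophages, while against muscle 1 was lower (Pf4) and 1 higher (Mrc1, 2.39, edgeR adjusted p = 0.00109). Of the 5 monocyte markers tested, 2 were higher in lung and 1 (F13a1) lower against joint, and 2 were higher and 0 lower against muscle. The higher ones were Ccl6 (1.69 against joint and 2.30 against muscle) and Cxcl3 (4.05 and 3.42) in both contrasts. The part of these markers was not tested.

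**Figure D5:**
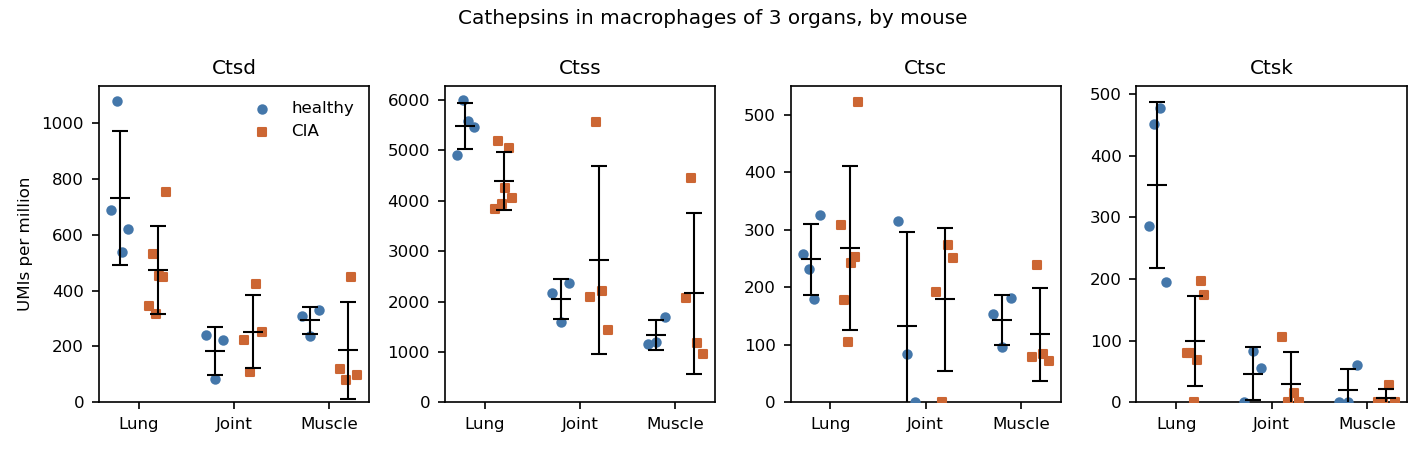
Ctsd, Ctss, Ctsc and Ctsk in CPM in the macrophages of each mouse (points) with the mean and SD of each group (bars) in lung, joint and muscle. Lung samples of Ctss lie between 3844 and 6007, and the joint and muscle samples are lower except for CIA mouse 3 in each.

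In fibroblasts, Cst3 followed the order joint, muscle, skin. Its lowest, median and highest levels were 1253, 5138 and 14311 CPM in the 6 joint samples, 1655, 2694 and 7815 in the 8 muscle samples and 675, 1036 and 1862 in the 9 skin samples. Joint and muscle overlapped, and skin met the others only at its upper end. Joint was above skin by 2.72 on the log2 scale (SE 0.342, edgeR adjusted p = 3.53e-06, 24.2% of 1134 genes passed) and muscle above skin by 1.60 (0.000551, 21.4% passed). Joint against muscle gave 1.13 and did not pass (0.0510, 4.67% passed), while DESeq2 gave 0.0346 and the edgeR fit without CIA mouse 3 gave 0.00553. Joint was above skin also in CIA and in healthy mice taken alone, by 1.72 and 3.28 (edgeR adjusted p = 0.00854 and 0.000291).

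Ctsb was also higher in joint than in skin fibroblasts. It was at 393 to 1124 CPM in joint and 111 to 613 in skin, with a log2 difference of 1.31 (SE 0.303, edgeR adjusted p = 0.00218), and in CIA mice alone 1.14 (0.122). Ctsz, read from the fit of every gene with a UMI, had 104 UMIs in 6 joint samples and 11 in 9 skin samples, with 2.17 (0.0166, 3.27% of 22443 genes passed), and with the mouse as a block its adjusted p was 0.220. Without CIA mouse 1 or CIA mouse 5 it was 0.0835 or 0.197. Ctsk had its lowest median in muscle. It was at 84.4 to 1184 in skin, 131 to 787 in joint and 0 to 536 in muscle, and muscle against skin gave -1.44 with an edgeR adjusted p of 0.0504, which became 0.0295 with the mouse as a block and 0.0191 to 0.0466 without healthy mouse 4 or CIA mouse 3, 5, 6 or 8. Joint against muscle gave 1.40 for Ctsk (0.152). Ctsl was within the spread between mice in all 3 organs, at 393 to 1268, 618 to 1301 and 368 to 1348. In joint against muscle 0 of the 5 members tested passed by edgeR, 2 had an unadjusted p under 0.05 and 1 passed by DESeq2. Without the share of all genes, the unadjusted and DESeq2 counts cannot show an excess.

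Of the lysosomal genes, Fuca1 (1.86, edgeR adjusted p = 0.00207), a fucosidase, Lamp1 (1.28, 0.00321) and Laptm4a (0.88, 0.0132) were higher in joint than in skin fibroblasts. Against skin, muscle had more Fuca1 (1.32, 0.0318) and Laptm4a (1.01, 0.00488) and less Cd63 (-1.36, 0.000837). Over all fibroblast contrasts, the hydrolases and activators gave 6 tests and 2 calls, and the membrane and proton pump genes 21 tests and 4 calls. Of all 1134 genes, 24.2% passed in joint against skin, 21.4% in muscle against skin and 4.67% in joint against muscle. With so few tests, these calls do not set the lysosomal lists apart. All 5 granulocyte markers tested and all 3 erythroid markers tested were higher in joint and in muscle than in skin fibroblasts, and 7 of the 11 fibroblast markers were higher in joint. The part of these markers in the Cst3 and Ctsb differences was not tested.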

How the data were processed

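Per the methods, the authors converted the reads with bcl2fastq and Picard, aligned them with STAR to GRCm38 and counted UMIs with Drop-seq tools. The submitters' processing notes also list the builds GRCh38 and mm9, with no role. The deposited values are whole UMI counts per gene and cell with the authors' cell labels. The members and all lists were chosen with earlier results of these data known. Here counts were summed per mouse, organ and label (at least 10 cells, at least 3 mice a group) and tested with edgeR 4.0.16 (TMM, filterByExpr, quasi-likelihood, Benjamini-Hochberg, 0.05). Cells without a label (1144) were left out. The rule for named genes took every member in each comparison, with values by mouse for those past the threshold and ranges or fold changes for the rest, and at most 3 genes of any other list past it. Members that the filter removed are mostly given as counts of those tested, and groups over 5 mice mostly by lowest, median and highest level. The CIA fits and 1 organ fit of each label were tested on simulated data. DESeq2 1.42.0 was an alternative. Doublets were not called here. CPM use the total of the label in that mouse, and fold changes the TMM scale. With the same animal in several organs, the mouse was added as a block; deviations of a mouse in 2 organs correlated between -0.17 and 0.18. One of the genes most like a member is not reported here.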

Additional observations from a re-analysis of the deposited data

Results flagged for a closer look

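Among 37 groups of 4 to 6 mice examined for 1 mouse far from the others, 5 held one, and chance gives about 1 in 20. Cst3 in lung macrophages was at 1850 CPM in healthy mouse 6, against 2917 to 3068 in the other healthy mice. Ctsd in muscle macrophages was at 447 in CIA mouse 5, against 79.6 to 118 in the other CIA mice. Ctsz in muscle macrophages was at 236 in CIA mouse 2, against 387 to 398. Ctsb in skin fibroblasts was at 529 in healthy mouse 3, against 273 to 310. Ctss in spleen monocytes was at 2595 in CIA mouse 6, against 1308 to 1756.

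The CIA effect on Cst3 differed between joint and muscle macrophages, by -2.27 on the log2 scale in edgeR's test of the difference itself (adjusted p = 0.0113). The call was lost with the mouse as a block (-2.15, edgeR adjusted p = 0.0635), with at least 20 cells per mouse (-1.84, 0.246), with no filter on low counts (-1.77, 1.00) and without healthy mouse 4 (0.109) or healthy mouse 7 (0.150).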

How the results depend on the processing

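Counts below are of members past edgeR's adjusted p of 0.05 unless DESeq2 is named. The share of all genes past it under each setting is not given, so a changed count is not a result about the members alone. In joint macrophages (1 member, Cst3) the count was 0 with no filter on low counts and in mice of name tag CIA alone, and 0 to 1 when 1 mouse was left out. In lung macrophages (1, Cst3) it was 0 in mice of name tag CIA alone and 0 with the mouse number as a replicate block, where Cst3 kept a log2 fold change of -0.89 (adjusted p = 0.321), and 0 to 2 without 1 mouse (2, Cst3 and Ctsk, without healthy mouse 7). Same-numbered healthy and CIA mice are different animals that share only a number. DESeq2 called 1 member in joint fibroblasts. Macrophages of lung against joint (2) gave 1 with at least 5 cells, 0 with at least 20 cells, 1 with no filter, 0 in CIA mice alone and 0 to 2 without 1 mouse. Lung against muscle (3) gave 0 in CIA mice alone, and Ctsc was lost with plain library size (adjusted p = 0.0548), at least 5 cells (0.0509), no filter (0.215), the mouse as a replicate block (0.160) and without each of 5 mice (0.0544 to 0.118). Joint against muscle (0) gave 1 in healthy mice alone, Cst3, whose direction turned to 1.22. The difference of the CIA effect in joint against muscle (1) gave 0 with at least 20 cells, 0 with no filter, 0 with the mouse as a replicate block and 0 to 1 without 1 mouse, and in lung against muscle (0) 1 by DESeq2 and 0 to 1 without 1 mouse. Fibroblasts of joint against muscle (0) gave 1 by DESeq2, 1 with at least 5 cells, 2 with no filter and 0 to 1 without 1 mouse. Muscle against skin (1) gave 2 by DESeq2, RLE factors, plain library size, at least 5 cells, no filter and the mouse block, and 1 to 2 without 1 mouse. Joint against skin (2) gave 1 in CIA mice alone. The causes were not tested.

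Joint macrophages could not be fitted with at least 20 cells per mouse. Depth limits the rarer genes: Lgmn and Ctsc passed the filter in 0 of the 11 CIA comparisons, so they were in none of the filtered tests, and in the edgeR fits of every gene with a UMI their adjusted p-values were 0.588 to 0.942.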
